A study of Balaenoptera physalus with 6 samples.

Results

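The CpG sites described here were the 361 sites with a mean methylation level under 50% among 651 CpG sites read without regard to their level or difference in fin whale (Balaenoptera physalus) skin. All 651 lay on scaffold NW_006724458_1 of the authors' assembly, between starts 51548 and 1103801, and the other 290 sites had a mean of 50% or more. Positions are start coordinates as the authors deposited them, with the strand of the cytosine. Each strand of a CpG counts as a site, and the 361 low sites belong to 257 CpG positions. The mean of the 6 samples chose the sites, so their low level is given as a description and carries no test. Genomic DNA of 6 skin samples of the Mediterranean population was read by reduced representation bisulfite sequencing. In this assay the enzyme MspI cuts at CCGG, bisulfite turns unmethylated cytosine into uracil, and the reads that keep a cytosine give the methylation level. By their labels, 3 samples had a high concentration of organochlorines, persistent chlorinated pollutants (high OC, titles beginning with BPT), and 3 a low one (low OC, titles beginning with BPL). The labels do not explain the prefixes, so whatever they mark and the contaminant load cannot be told apart. The labels do not say whether the samples came from separate animals, and p-values measure the spread between these samples only. Age, sex and the measured contaminant load were not given in the labels used here.

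In vertebrate genomes most CpG cytosines are methylated on both strands, a state that the maintenance methyltransferase DNMT1 copies after each replication. Dense groups of CpG at many promoters stay unmethylated and are called CpG islands, and MspI digestion enriches for such sequence. Skin is a mixture of epidermal, dermal and other cells, so an intermediate level can come from a part of the cells, a part of the alleles or a mixture of molecules, and these cannot be told apart in such data.

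Most of the low sites were close to 0, and few lay between. A mean of at most 5% was found at 268 of the 361 sites (74.2%). Of these, 89 sites were listed at 0% in every sample, 132 lay above 0 and up to 2%, and 47 lay above 2 and up to 5%. Another 47 sites lay above 5 and up to 20%, and 46 lay above 20% and under 50%. Within that upper class 15 sites were above 20 and up to 30%, 10 above 30 and up to 40% and 21 above 40%, so the sparsest part of the low range was between 30 and 40%. The 3 sites nearest below the limit of 50% had means of 49.8% (112772, minus strand), 49.2% (818232, plus strand) and 48.3% (259930, plus strand). The 3 nearest above it had 50.2% (259829, plus strand), 50.3% (818488, plus strand) and 50.7% (948073, plus strand). Those on either side of the limit thus came partly from the same groups of neighbouring sites, and the limit cut through them.

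**Figure D1:**
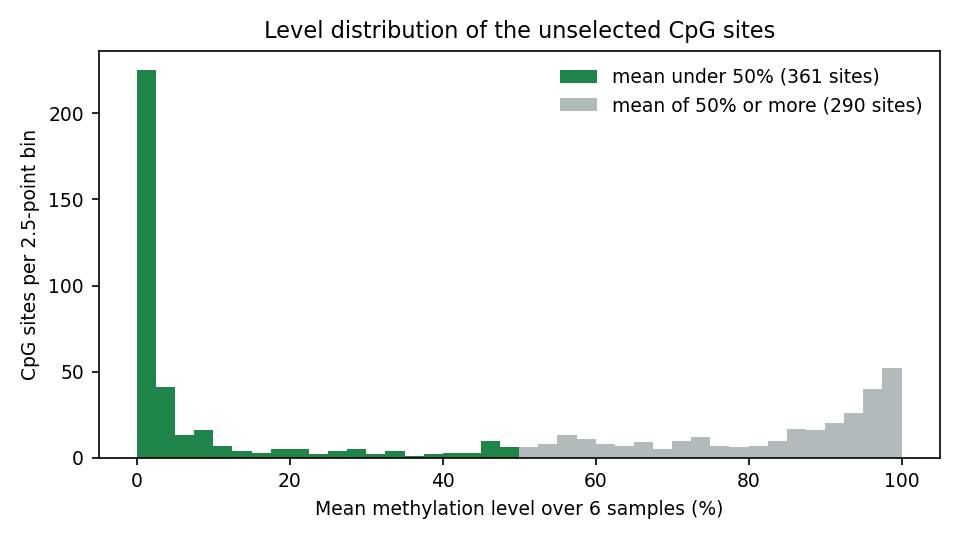
Number of CpG sites in each 2.5-point bin of the mean methylation level over the 6 samples; green bars are the 361 sites with a mean under 50% and grey bars the other 290. The green sites pile up at the left edge, with 268 at or under 5%, and the grey ones towards 100%.

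The 6 samples gave much the same picture at the low sites. Averaged over the 361 sites, the high OC samples stood at 7.48%, 7.15% and 7.06% in replicates 1 to 3. The low OC samples stood at 5.78%, 7.6% and 7.03%. Low OC replicate 1 was the lowest and low OC replicate 2 the highest of all 6, so the low OC samples enclosed the high OC samples. The high OC mean was 7.23% ± 0.221 (SD, n = 3) and the low OC mean 6.80% ± 0.930 (SD, n = 3), a difference of 0.43 percentage points. The sign of this difference was not stable: without low OC replicate 1 it was -0.0836 points. Counting reads in place of sites, 4.77% to 5.77% of the reads over these sites were methylated, from 8401 to 10105 reads per sample summed over the sites. Between 227 and 242 of the 361 sites were listed at 0% in any 1 sample, and 5 to 16 sites reached 50% or more in 1 sample. Median coverage was 14 to 18 reads per sample, and 198 of the 361 sites reached 10 reads in all samples. At the 89 sites listed at 0% throughout, 16798 reads were counted over all samples, which allows a level of up to 0.0179% by counting error alone. A read counts at each of these sites that it covers, so this limit is too small. Because levels were deposited to 2 decimals, a listed 0% can stand for up to 0.5% where coverage is high. For single sites of this class the count limit ran from 0.0380% (7901 reads) to 6.82% (44 reads).

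Low sites lay together. Taking neighbouring CpG sites at most 100 bases apart, all of them low, 19 stretches of at least 5 sites held 300 of the 361 sites (83.1%). The 2 strands of a CpG count as neighbouring sites, so a stretch can hold fewer CpG positions than sites. The mean over the sites of a stretch was at most 5% in 12 stretches (257 sites) and above 5% in 7 stretches (43 sites). The remaining 61 sites, alone or in runs of 2 to 4, had a mean of 19.2%, and 31 of them lay above 5%. Counting groups of neighbours with gaps of at most 1000 bases, 36 groups had at least 4 sites. Of these, 12 held low sites only, 12 held none and 12 held both kinds. The groups with low sites only carried 293 of the 361 sites. Sites of a stretch share reads, since they can lie on the same MspI fragment, so they are not independent measurements.

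The longest stretch ran over 852 bases from 392710 to 393561, with 59 sites. It averaged 3.73%, 3.12% and 3.44% in the high OC samples and 2.56%, 3.47% and 3.93% in the low OC samples. The stretch was not flat. Its first 47 sites, up to 393303, averaged 1.21% to 2.28% in the samples. Its last 12 sites, from 393311, averaged 7.83% to 13%, so each sample was higher at this end than any sample was in the rest. No site of the stretch reached a mean of 20%, and the highest had 18.8%.

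A stretch of 51 sites from 75343 to 75658 had the lowest mean of the 8 stretches with the most sites. The high OC samples averaged 0.863%, 1.02% and 1.90% there and the low OC samples 1.06%, 1.37% and 0.902%. At 23 of its sites no sample showed any methylation. A shorter stretch of 6 sites, from 74959 to 75047 and separated from it by 296 bases, was higher, with sample means from 5.33% to 13.2%. The highest of these was low OC replicate 2 and the lowest low OC replicate 1.

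The group from 822281 to 822725 had the same layout, a raised part beside an empty one. Its first 10 sites, up to 822359, averaged 16.5%, 13.1% and 23.3% in the high OC samples and 7.20%, 23.4% and 13.6% in the low OC samples. Its last 22 sites, from 822656, averaged 0.273%, 1.09% and 3.41% in high OC and 1.41%, 0.727% and 0.818% in low OC. These parts lie 297 bases apart, and no sample's level in the empty part came up to the lowest of the raised part. Within each part the groups overlapped.

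**Figure D2:**
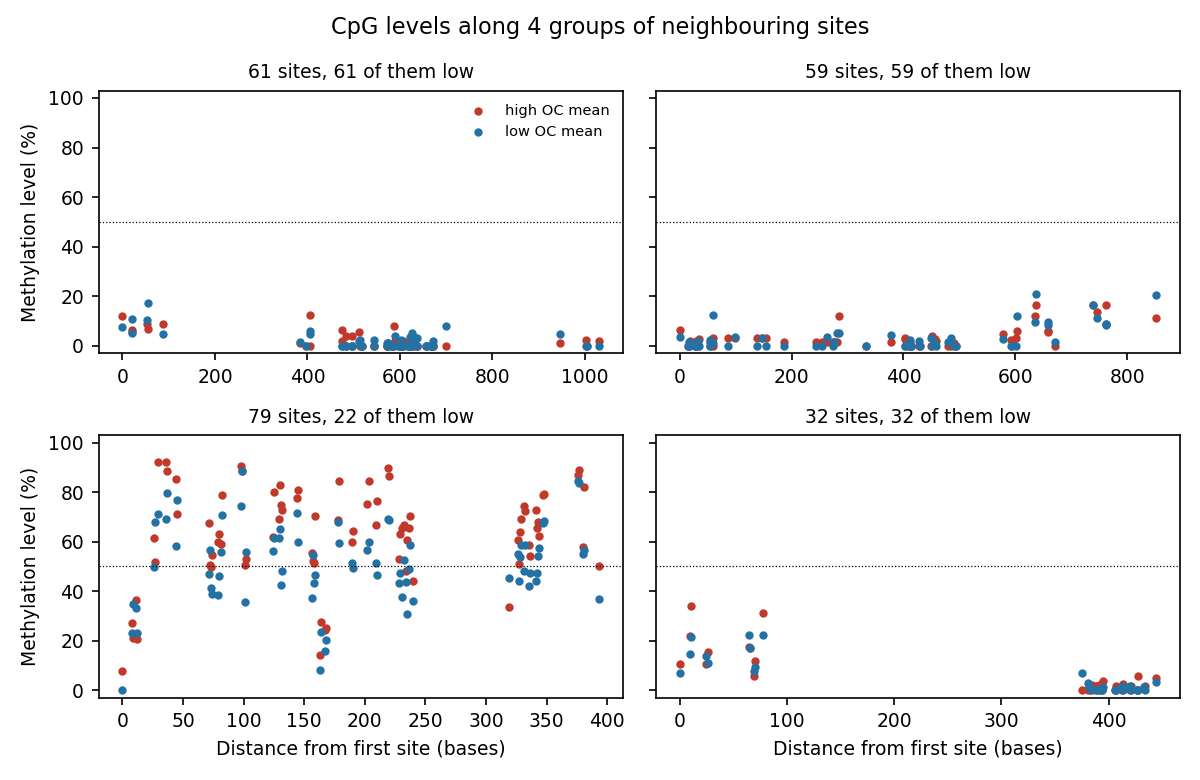
Group mean methylation level (%) of every CpG site against its distance in bases from the first site of 4 groups of neighbouring sites, starting at 74959 (top left), 392710 (top right), 818153 (bottom left) and 822281 (bottom right); red points are the mean of 3 high OC samples, blue points that of 3 low OC samples, and the dotted line is 50%. The group from 392710 rises at its far end, that from 822281 starts raised and ends near 0, and that from 818153 holds low and high sites side by side.

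Other stretches stayed near 0 along their whole length. The stretch of 30 sites from 619208 to 619446 averaged 0.800% to 2.13% in the samples, with 14 sites at 0% throughout. The stretch of 12 sites from 742286 to 742388 averaged 0 to 5.25%, with both extremes in the high OC group (replicates 3 and 1). Summed over its sites, these samples had 0 methylated of 77 reads and 7 of 102, and their exact 95% intervals overlapped. The stretch of 10 sites from 741675 to 741760 averaged 0 in low OC replicate 3 and up to 3% in high OC replicate 2. There the sums were 0 of 186 and 6 of 168 reads. A read counts at every site it covers, so fewer separate reads can underlie these sums. No gene was given for any site of these stretches in the tables used here, in which gene columns stood only beside the sites listed as different.

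The last stretch carried the only gene name that the authors' deposited tables paired with a low site. It ran from 1103326 to 1103801 with 35 sites, and its site at 1103683 on the minus strand was placed in the promoter of PLXNA2. PLXNA2 encodes plexin A2, a receptor for semaphorins that steers growing axons. The same tables put sites at 887589 and 1070893 in PLXNA2 exons and a site at 899227 in its intron. The high OC samples averaged 0.571%, 0.943% and 0.800% over the 35 sites, and the low OC samples 2.43%, 3.23% and 1.80%. All low OC samples thus lay above all high OC samples, which was the case in no other of the 19 stretches. For 3 against 3 samples, 1 of 19 stretches in such an order is no more than random labels would be expected to give. The group means were 0.771% ± 0.187 (SD, n = 3) and 2.49% ± 0.716 (SD, n = 3), a difference of -1.71 points. It rests on few reads. Summed over the 35 sites, each high OC sample had 3 to 5 methylated reads of 400 to 548. Each low OC sample had 9 to 16 of 472 to 595. A read counts at every site it covers, so fewer separate reads underlie these sums. Exact 95% intervals of these shares treat the summed reads as independent, so they understate even the counting error. They overlapped in 8 of the 9 pairs of a high OC and a low OC sample. They were apart in the pair of high OC replicate 3 (0.113% to 1.59%) and low OC replicate 2 (1.95% to 5.45%). The last 7 sites held 6 that were methylated in low OC replicate 2 alone, and without these 7 the difference was -1.29 points and the groups stayed apart. At 1103777 the 6 samples had 26, 16, 16, 16, 16 and 18 reads, and at 1103795 they had 13, 8, 8, 8, 8 and 9, that is, coverage stood at exactly 2 times the later value on the earlier site. Over the 14 sites reaching 10 reads in all samples the groups overlapped, with high OC replicate 1 and low OC replicate 1 both at 0.357%. None of these 14 sites passed the logistic model used for single sites. The difference of a stretch was given no test, because its sites had been chosen by level.

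**Figure D3:**
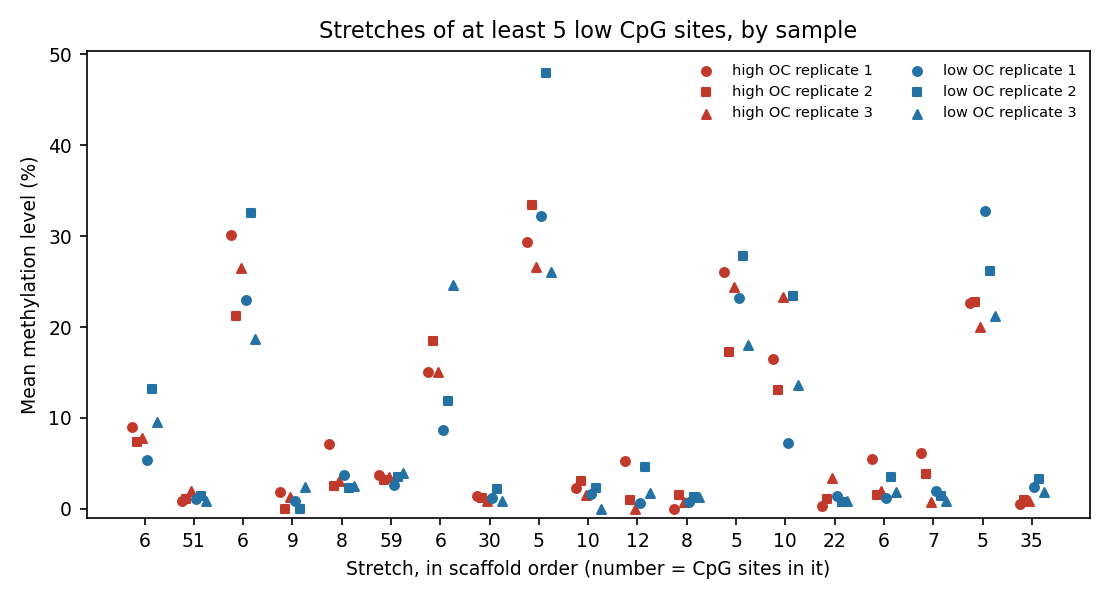
Mean methylation level (%) of each of the 19 stretches of at least 5 low CpG sites, in scaffold order from left to right, with the number of sites below each; points are single samples, red for high OC and blue for low OC, with circles, squares and triangles for replicates 1, 2 and 3. In the last stretch, that of the PLXNA2 promoter site, the blue points (1.80% to 3.23%) lie above the red ones (0.571% to 0.943%), and elsewhere the colours overlap.

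Near 0, the CpG levels were of the size of the non-CpG levels beside them. CHG and CHH sites (H is any base but G) are rarely methylated in mammalian skin, and what is read there includes cytosine that bisulfite failed to convert. Over the 268 CpG sites with a mean of at most 5%, sample means ran from 1.06% to 1.43%. At the 230 CHG sites within 100 bases of these and of no CpG site with a mean of 50% or more they ran from 0.565% to 1.30%, and at the 389 such CHH sites from 0.463% to 1.64%. The 3 ranges overlapped. Within a sample, the CpG level was above the CHG level in 6 of 6 samples, by 0.0402 to 0.554 points, and above the CHH level in 5 of 6, high OC replicate 3 being the exception. The CpG sites had been chosen for a mean of at most 5%, and the CHG and CHH sites had not been chosen by level. The CpG sites also covered more of the scaffold than the others, and these differences were given no test. Over the 156 of the CpG sites up to the last CHH position, sample means ran from 0.994% to 1.46%. High OC replicate 3 was the highest of the 6 at both CHG (1.30%) and CHH (1.64%) sites. The CHH sites analysed here ended at 691325 and the CHG sites at 1009455, so non-CpG sites beside the PLXNA2 promoter stretch were not analysed here.

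**Figure D4:**
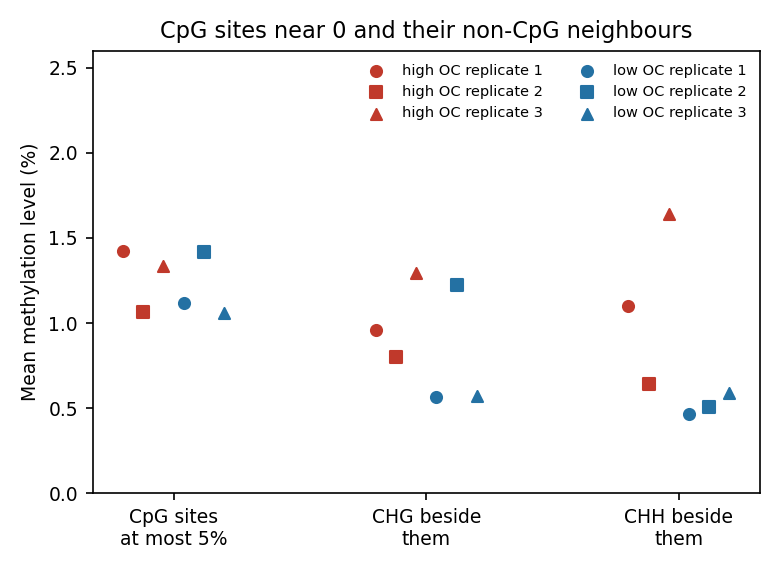
Mean methylation level (%) per sample over the 268 CpG sites with a mean of at most 5%, and over the 230 CHG and 389 CHH sites within 100 bases of them and of no CpG site with a mean of 50% or more; red is high OC, blue low OC, and circles, squares and triangles are replicates 1, 2 and 3. All values lie between 0.463% and 1.64%, and the ranges of the contexts overlap.

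Intermediate stretches were short. The 7 stretches with a mean above 5% held 5 to 10 sites each. The 4 highest were chosen after seeing their values. The stretch from 697376 to 697400 (5 sites) averaged 29.4%, 33.4% and 26.6% in high OC and 32.2%, 48.0% and 26.0% in low OC. The stretch from 112792 to 112853 (6 sites) averaged 30.2%, 21.2% and 26.5% against 23.0%, 32.5% and 18.7%. The stretch from 1086670 to 1086730 (5 sites) averaged 22.6%, 22.8% and 20% against 32.8%, 26.2% and 21.2%. This average mixes unlike sites, with means from 0, at 2 of them, to 46.3%. The stretch from 818153 to 818165 (5 sites) averaged 26.0%, 17.2% and 24.4% against 23.2%, 27.8% and 18%, with site means from 3.83% to 34.8%. In each of the 4 the highest sample was of the low OC group, which was low OC replicate 2 in all but the stretch from 1086670, and the groups overlapped.

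The step from low to high methylation was often made between adjacent sites. In 54 places a low site and a site of 50% or more followed each other within 100 bases, with a median step of 48.6 points, and in 27 of them the step was at least 50 points. Many of these 27 border single sites at or near 0. Some of those, such as 595972 and 950945, gave a step on either side, so the places are not all separate boundaries. The levels alternated over 4 neighbouring sites near 112707, an example chosen after seeing the values: 36.7% at 112707 (plus), 86.7% at 112717 (plus), 9.17% at 112718 (minus) and 66.5% at 112734 (plus). The pair at 112717 and 112718 is the 2 strands of the same CpG, and each sample was higher on the plus strand. Coverage was 31 reads or more at both sites in every sample. On the minus strand the samples ranged from 0 (high OC replicate 2 and low OC replicate 2) to 30% (low OC replicate 3). Both strands were listed for 104 CpG positions at which both were low, and their means differed by a median of 1.08 points and by at most 14.3 points. In the 6 other CpG positions with 1 strand below and 1 above the limit, the strands differed by 5.5 to 11.3 points.

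Sites at or near 0 also stood within methylated surroundings. Of the 268 sites with a mean of at most 5%, 11 had a CpG site of 80% or more within 100 bases, and 8 of the 11 were at 0% in every sample. The site at 952103 (minus), read 18 to 36 times per sample, was at 0% while 952108 (plus), 5 bases on, had 97.7%. The site at 1019348 (minus) was at 0% with 8 to 19 reads, 2 bases from 1019346 (minus) at 95.3%. The sites at 706698 (plus) and 706699 (minus), the 2 strands of a CpG, were both at 0% with 97.2% at 706691. For 7 of the 11 sites the other strand was not listed. That is 36.4% with a listed partner, beside 61.5% of the 257 other sites of this level. Whether the sequence of these whales differs from the assembly at such sites was not tested. The 2 most deeply read low sites stood between methylated neighbours too. The site at 595972 (plus) was at 0% in all samples, with 1084 to 1488 reads each, between sites at 66.7% and 63.2% that lie 20 and 6 bases away. The site at 595947 (plus) stood at 2% in each high OC sample and at 4%, 3% and 2% in the low OC samples, with 1081 to 1493 reads. Its neighbours at 595943 and 595952 had 69.3% and 66.7%. The depth at these sites stood far above the median of 14 to 18 reads per sample at low sites. At 595603 and 595606, in the same group of neighbours, coverage was 7 to 13 reads. What the difference in depth comes from was not tested. The remaining 2 of the 4 most deeply read low sites, at 112826 and 112810 (minus), stood at 29.5% and 33.7% with 48 to 82 reads in each sample.

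At most low sites the spread between samples was about that of counting reads, but sites near 0 can show little else. The SD of the 6 levels had a median of 3.10 points over the 361 sites, and binomial counting at each site's coverage and pooled level gave a median of 3.29 points. Both SDs were 0 at the 89 sites listed at 0% in every sample. In the class above 5 and up to 20% the medians were 8.52 and 8.02 points, and above 20% they were 13.4 and 13.3 points. The ratio of observed to binomial variance (Pearson, over 5 degrees of freedom) could be computed at the 272 low sites with any methylated read. Its median was 1.04, and it exceeded 1 at 144 of them (52.9%). With only 1 methylated read at similar coverages this ratio is near 1 by construction. Of the 272 sites, 132 lay above 0 and up to 2%, where methylated reads were few. The median ratio was 1.02 at sites of at most 5%, 1.01 above 5 and up to 20%, and 1.16 above 20%. It was 1.98 at the 102 sites with means from 50 to under 80% and 1.05 at the 188 sites from 80% up. The classes were cut by the same levels, so this order was not tested.

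**Figure D5:**
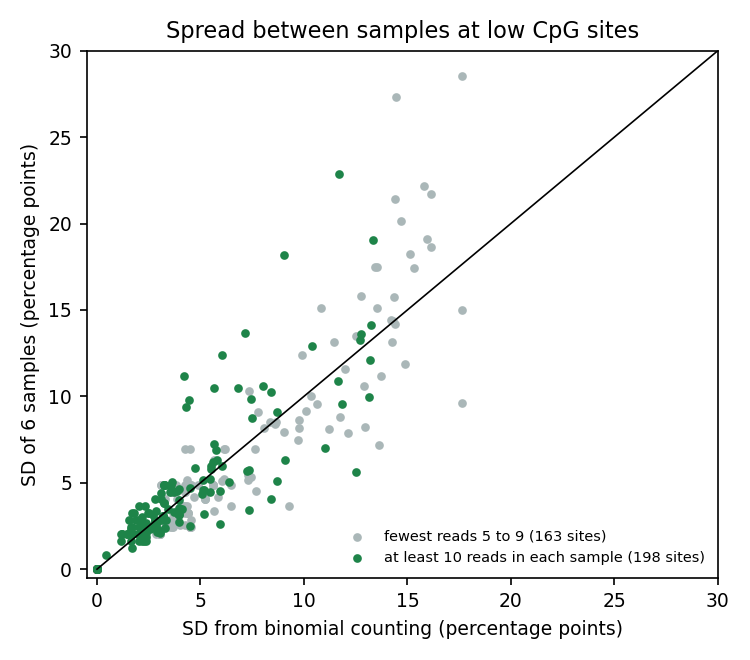
SD of the methylation level over the 6 samples against the SD that binomial counting gives at the site's coverage and pooled level, both in percentage points, for the 361 low CpG sites; green points reached 10 reads in all samples, grey points had fewer in some, and the line marks equality. Most points follow the line, with medians of 3.10 (samples) and 3.29 (counting), and a few lie well above it. Points near the origin follow it largely by construction, since those sites have few methylated reads.

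A few low sites varied far beyond counting. Among those with 10 or more reads per sample, 12 had a range of at least 30 points between samples and 2 a range of at least 50 points. The widest was 818472 (plus), at 38%, 44% and 19% in high OC and 10%, 53% and 73% in low OC, an SD of 22.9 points where counting gives 11.7. Low OC samples were both its lowest and its highest. The site at 1098285 (minus) was raised in a single sample, with 56% in high OC replicate 2 against 16% and 16% in the other high OC samples and 8%, 7% and 16% in low OC. Its SD was 18.2 points, where counting gives 9.04. At 112792 (minus) the levels were 24%, 3% and 19% in high OC and 10%, 43% and 18% in low OC, and the SD of 13.7 points compared with 7.14 from counting. The other 5 of the 8 widest sites stood nearer to counting. The SD was 19.1 points at 818388, where counting gives 13.3, and 12.9 points at 112707, where counting gives 10.4. At 818232, 818164 and 1086673 it was 14.1, 13.6 and 13.3 points, where counting gives 13.3, 12.8 and 12.7, so these were wide by about the spread of counting reads. Choosing by SD favours intermediate levels, and sites with lower means also went beyond counting. At 112718 (minus), with a mean of 9.17%, the SD was 11.2 points, where counting gives 4.23. At 75658 (minus), with a mean of 4%, it was 9.80 points against 4.43, from 24% in low OC replicate 2 alone. Several of the 8 widest sites lie in the group from 818153 to 818546.

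That group held 79 CpG sites, of which 22 were low. Over the 22, the high OC samples averaged 39.95%, 41.5% and 36.6% and the low OC samples 24.3%, 30.0% and 41.1%. Low OC replicates 1 and 2 were the lowest, while low OC replicate 3 lay among the high OC samples, so the groups overlapped. The group means were 39.4% ± 2.49 (SD, n = 3) and 31.8% ± 8.56 (SD, n = 3). The high OC mean was higher at 19 of the 22 sites and lower at 3, and these sites share reads. Without them the difference over the remaining low sites was -0.0374 points, against 0.43 points with them.

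The question whether single sites differed with the contaminant group was put to a logistic model on methylated and unmethylated reads, with overdispersion squeezed across sites (limma) and Benjamini-Hochberg adjustment over all 292 CpG sites that reached 10 reads in all samples. Called at an adjusted p under 0.05 were 3 of the 292 sites (1.03%), all of them with means of 50% or more, and 0 of the 198 low sites. Before adjustment, the logistic model gave a p under 0.05 at 3 of the 198 low sites and 22 of all 292. Fisher's exact test on summed reads did so at 8 low sites and 37 of all, and limma on log2 ratios at 8 and 19. Both of these tests also called 0 low sites. Fisher's exact test takes the summed reads as independent, so its p-values leave out the spread between samples. In the logistic model the lowest adjusted p of a low site was 0.628. The group means of low sites differed by a median of 2 points in size, and by at least 10 points at 6 of the 198 sites. The mean was higher in high OC at 83 sites, higher in low OC at 65 and equal at 50. All high OC samples lay above all low OC samples at 4 of the 198 sites, beside 3.42% of all 292. The reverse held at 1 site, beside 1.71%. With 2.02% and 0.505% of the low sites, neither share exceeded its background. A site at 0% in every sample could neither separate the groups nor be called, so this comparison was partly fixed in advance. Of the 198 low sites, 156 had means of at most 5%.

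The 6 low sites with the lowest p were of several kinds. The site at 818388 (minus) stood at 50%, 70% and 62% in high OC and 42%, 19% and 31% in low OC. Its adjusted p was 0.628 in the logistic model with limma squeezing. Its 3 high OC samples lay above its 3 low OC samples, at 10 to 16 reads each. The site at 202066 (minus) had 25%, 11% and 0% against 6%, 5% and 0%, so it was raised mainly in high OC replicate 1. Its coverages, 34 to 48 reads, were all exactly 2 times those at 202101 (minus). The site at 595947 has been given above, and its counts are approximate, since several counts fit a level of 2 decimals at its coverage. At 822656 (plus), the first site of the empty part of its group, all high OC samples were at 0% and the low OC samples at 10%, 8% and 3%, with 21 to 30 reads. The sites at 75365 (minus) and 393195 (plus) were at 0% in high OC, and low OC replicate 1 or 2 was at 0% too. Fisher's exact test on summed reads gave low sites an adjusted p of 0.150 at the lowest.

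The authors' deposited table called 13 of the 651 sites different (2%), among them 5 of the 361 low sites (1.39%). Differences of those 13 were 0.1 or more in size, and their deposited p-values, which were not adjusted in the table as far as its header says, reached 0.0489. In the authors' deposited table, 4 of the 5 were higher in high OC: 818227 (minus) by 0.16, 818232 (plus) by 0.21, 818388 (minus) by 0.3 and 822292 (minus) by 0.12. The first 3 lie in the group from 818153. The 5th, the PLXNA2 promoter site at 1103683, was lower by 0.11, at 0% in each high OC sample and 6%, 10% and 17% in the low OC samples. Its coverage was 6 to 16 reads, so the 3 low OC values correspond to 1 methylated read each. Coverage kept 818227, 822292 and 1103683 out of the model, and 818232 (adjusted p = 0.807) and 818388 (adjusted p = 0.628) did not pass its threshold after limma squeezing.

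Compared pairwise at the low sites, high OC samples were closer to each other on average than samples of different groups were (4.89 points), and low OC samples were farther apart. The mean absolute difference per site was 4.41 to 4.74 points in the 3 pairs within high OC and 5.16 to 5.78 points in the 3 pairs within low OC. In the 9 pairs across groups it was 4.05 to 5.45 points. Pairs within low OC were thus the farthest apart on average (5.42 points), and those within high OC the closest (4.52 points). Of the 93 low sites above 5%, low OC replicate 1 was the single lowest sample at 19, the most of any sample, and low OC replicate 2 the single highest at 22. The median coverage of low OC replicate 1 at low sites was 15 reads, within the range of 14 to 18 of the others.

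Low sites were read more deeply and lay closer together than the other 290 CpG sites. The lowest coverage of a site in any sample had a median of 11 reads at low and 8 reads at other sites. At least 10 reads in each sample were reached by 54.8% of the low and 32.4% of the other sites. Within 100 bases on either side, a low site had a median of 11 listed CpG neighbours and another site 8.5, each strand counted. Those at most 5% had 13 and the low sites above 5% had 9. Sites of a stretch share fragments, and these medians were given no test. All 6 coverages were even at 27 low sites (7.48%), where independent counts would give 1.56%, and other sites had 11.4%. At 202066 (minus) the 6 coverages were 48, 38, 40, 34, 38 and 48, exactly 2 times those at 202101 (minus). At 75503 (minus), not among the 27, coverage was 2 times that at 75476 (minus) in all samples but low OC replicate 1. Whether reads were counted doubly at such sites was not tested. Where they were, the counting errors given are too small.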

How the data were processed

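Skin DNA of 6 samples, 3 high OC and 3 low OC by their labels, was digested with MspI, converted with bisulfite, amplified and read on a HiSeq (per the labels' protocols). The submitters' processing notes name Bismark. No version of it, genome build or read filter is given in the sources used here. Per the file headers, the authors deposited for each site the methylation level of each sample as a fraction with 2 decimals and the count of reads over it. They also deposited the p-value of their comparison, the difference between groups on the fraction scale, and a call. The lowest count was 5 reads, and p-values stood at 1 where the difference was under 0.1. The tables of all sites were analysed for their first part only, and an incomplete last line was left out. Positions are the start column as deposited. Its offset, the sequence around the sites and gene models were not used here, so no sequence is shown.

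Methylated reads were the level times the coverage, rounded, which returned the deposited level within rounding at all CpG sites. Where coverage is high, several counts fit a level of 2 decimals, so the counts there are approximate. A 2-group logistic model per site whose Pearson overdispersion was kept at 1 or above and moderated across sites with limma 3.58.1 (R 4.3.3), an F test and p-values adjusted after Benjamini and Hochberg was fitted to all CpG sites read 10 times or more in every sample, after it was tested on simulated data. Levels, stretches and spread were described in Python 3.11.15 (pandas 2.3.3, scipy 1.17.1, numpy 2.4.6). No p was given for means over low sites. The labels name no molecular identifiers. Intervals and limits therefore cover counting error only, and those summed over sites understate it because sites share reads. The low sites, the classes and the stretch definition were chosen with earlier results of these data known, and the split of the longest stretch after seeing its levels. Sites were named by rule: up to 8 stretches by number of sites, the 8 widest SDs, 6 lowest p and 4 highest coverages, the sites the authors called and the 3 on each side of the limit. Stretches or sites outside it are said to be so or illustrate a count.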

Additional observations from a re-analysis of the deposited data

How the results depend on the processing

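The low sites had 0 calls under each alternative run: coverage minimums of 5 and 20 reads, unsqueezed overdispersion, limma on log2 ratios, Fisher's exact test, each sample left out, and reads halved at sites with only even coverages, an alternative added after the data were seen. Among all CpG sites, 3 calls became 0 without squeezing, 0 with limma, 7 with Fisher's exact test, and 0 to 10 with a sample left out (0 without high OC replicate 2 or low OC replicate 2, 10 without low OC replicate 3). The difference of 0.43 points over the low sites moved by less than the spread between samples (0.676 points) under each alternative but changed sign with at least 20 reads in each sample (-0.129 points); with a sample left out it ran from -0.0836 to 0.826 points. The share of low sites at or under 5% rose from 74.2% to 78.8% with at least 10 reads and 82.5% with at least 20, and the median SD fell from 3.10 to 2.5 and 2.35 points. With a sample left out that SD ran from 2.68 (without low OC replicate 2) to 3.13 points. The 19 stretches became 11 with at least 8 sites and 12 with at least 10 reads in each sample, by construction. The PLXNA2 promoter difference of -1.71 points ran from -1.29 to -2 points under 4 settings added after the data were seen, and from -1.34 (without low OC replicate 2) to -2.06 points with a sample left out. No paired analysis was possible because the replicate numbers only name samples. Depth limits a single site in a single sample to steps of several points.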
